A study of Mus musculus with 10 samples.

Results

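The 10 genes described here encode subunits of the replicative DNA polymerases and of primase, and were followed in serum-starved NIH3T3 cells that lacked or re-expressed *Lin37*. They were chosen by name as listed subunits of the enzymes, namely *Pola1*, *Pola2*, *Prim1* and *Prim2* of the polymerase alpha-primase complex, *Pold1*, *Pold2* and *Pold3* of polymerase delta, and *Pole*, *Pole2* and *Pole3* of polymerase epsilon. All 10 were found among the 45232 gene entries of the expression matrix. NIH3T3 is an immortalized mouse fibroblast line. All groups carried CRISPR/Cas9 nickase mutations of *Lin37*, in exon 4 (clone 411-27) or in exon 6 (clone 632-2), together with an episomal plasmid with a doxycycline-inducible promoter. The plasmid expressed luciferase in the knockout cells (KO) or wild-type Lin37 in the rescue cells, in both cases along with GFP. Cells were grown in 10% FCS and kept in 0% FCS for 60 h before RNA was taken, and the labels give their stage as quiescent. The exon 4 clone gave 2 biological replicates of KO and 2 of rescue. The exon 6 clone gave 3 libraries of each group, of which sample 3 was a technical replicate of sample 2, so the technical replicates were averaged and 4 KO replicates were compared with 4 rescue replicates. Each exon was represented by a single clone, and the promoter of the plasmid was leaky, since Lin37 protein was seen without induction.

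Chromosomal DNA is copied by a division of labour between these enzymes. Primase lays down a short RNA primer, polymerase alpha extends it with DNA, polymerase epsilon continues the leading strand behind the helicase, and polymerase delta copies the lagging strand and fills the gaps between its fragments. Quiescent cells have little use for them, and many replication genes belong to the targets of DREAM, a repressor complex in which Lin37 is part of the MuvB core and which reaches promoters through E2F sites or through the CHR element. The comparison of KO with rescue asks how the messages for each polymerase stood in starved cells without functional Lin37.

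The values are RPKM, reads scaled by gene length and by library total. Each library was divided by its own scaling factor, the median ratio to the other libraries over well expressed genes, before replicates were compared. *Lin37* itself stood at 0.285 and 0.284 RPKM in the KO replicates of the exon 4 clone and at 2.54 and 2.12 RPKM in its rescue replicates. For the exon 6 clone these were 0.417 and 0.274 RPKM in KO and 4.92 and 4.76 RPKM in rescue. The gene was thus low in all KO replicates and high in all rescue replicates, as their labels say, with more of it in rescue cells of the exon 6 clone. The fibroblast markers *Col1a1*, *Col1a2*, *Col3a1*, *Vim*, *Fn1*, *Pdgfra*, *Pdgfrb*, *Thy1* and *S100a4* summed to between 506 and 785 RPKM per KO library and to between 549 and 856 RPKM per rescue library, and none of the 9 was listed at 0 in any library. None of them passed the limma test of KO against rescue, beside 1.61% of all genes called higher and 0.083% called lower. Beside such shares the lack of a call in 9 genes says little. The largest changes were those of *Pdgfra*, with a log2 change of -0.47, and *Thy1*, at -0.27. *Pdgfra* was lower in KO in each pair of replicates (limma, unadjusted p = 0.00233, Benjamini-Hochberg adjusted p = 0.102). The 15 markers of epithelial, immune, endothelial and skeletal muscle cells together summed to between 0.813 and 2.45 RPKM per library, with between 1 and 8 of them listed at 0 and with the phagocyte gene *Cd68* at a mean of 1.06 RPKM in KO and 0.774 RPKM in rescue. Of these 15, *Cd3e*, *Cd68*, *Des* and *Cdh1* were high enough to be tested, with log2 changes of -0.33, 0.27, 0.23 and -0.03. No call was made among them, beside the same shares of all genes. The level of *Cd3e* came from rescue replicate 2 of the exon 4 clone, at 0.809 RPKM, and no other replicate exceeded 0.0186 RPKM.

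The libraries differed in composition. Scaling factors ran from 0.324 to 2.70, and the entry *Gm10800* took between 1.01% and 44.6% of the summed RPKM of a library. A small set of entries picked by name as satellite-like, *Gm10800* among them, together took between 1.63% and 73.8%. No repeat annotation was used to pick them, so other such entries may be missing from the set. The lowest factors, 0.377 and 0.324, belonged to rescue sample 2 of the exon 4 clone and rescue sample 2 of the exon 6 clone, where *Gm10800* took 41.0% and 44.6%. The set picked by name took 69.5% and 73.8% there. Within each numbered pair the rescue library had the lower factor, so the changes of the subunits are also given in the RPKM as deposited. Read depth is unknown, because the low values did not come out as whole reads, so no counting error can be given.

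Promoter sequences from RefSeq (GRCm38.p6) were at hand for 8 of the 10 genes, all but *Pole* and *Prim2*, which were not searched. The windows of 300 bases run from 250 bases before the RefSeq start to 50 bases after it. They were searched on both strands for an E2F heptamer, which was TTCCCGC or one of its relatives TTCGCGC, the variant TTGCCGC, or the variant TTGGCGC. They were also searched for the CHR hexamer, written TTTGAA or in its other form TTCGAA, and for the pentamer CCAAT. An E2F heptamer was found in 6 of the 8 windows, those of *Pola1*, *Prim1*, *Pold1*, *Pold3*, *Pole2* and *Pole3*, beside 9.57% of all 32851 promoter windows and 12.1% of the 21263 windows of protein-coding genes. No CHR hexamer was found in the 8 windows, beside 19.2% of all windows, and CCAAT was found in those of *Pola1*, *Prim1* and *Pold2*, beside 37.4%. In *Pola1*, *Prim1* and *Pole3* an E2F heptamer lay before the RefSeq start. GENCODE, whose gene spans are given below, starts *Pola1* at the same base, and it starts *Prim1* 47 and *Pole3* 54 bases earlier than RefSeq, so their heptamers lie inside the GENCODE genes and only those of *Pola1* lie before both starts. The stretch from -175 to -1 of *Pola1* and 26 bases around the heptamers of the others are shown 5′ to 3′ on the strand of the gene, with the E2F heptamers in capitals, because they set a gene that passed the test of KO against rescue (*Pole3*) beside one whose groups overlapped (*Prim1*) and beside one whose groups were apart but that did not pass (*Pola1*).
*Pola1*, chrX:93632156-93632330, minus strand: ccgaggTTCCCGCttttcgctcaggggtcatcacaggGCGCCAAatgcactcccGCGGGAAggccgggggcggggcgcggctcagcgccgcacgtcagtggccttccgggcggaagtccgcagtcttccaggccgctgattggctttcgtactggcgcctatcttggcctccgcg
*Prim1*, chr10:128015189-128015214, plus strand: ggcctgtcttgTTCCCGCcaattctc
*Pole3*, chr4:62525048-62525073, minus strand: attttagcgacGCGGGAAgtccagac
*Pola1* carried 3 heptamers in this stretch, 1 on the strand of the gene from -169 to -163 and the others on the opposite strand from -138 to -132 and from -121 to -115, and it carried another after the start, all counted from the RefSeq start. The heptamer of *Prim1* ran from -15 to -9 on the strand of the gene and shared its last base with a CCAAT from -9 to -5. That of *Pole3* ran from -48 to -42 on the opposite strand. A match describes the letters only.

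All 3 listed subunits of polymerase epsilon, the leading-strand enzyme, passed the test of KO against rescue, *Pole2* less firmly than the others. Of all genes tested, 1.61% were called higher in KO. *Pole* (chr5:110286306-110337474, plus strand, GRCm38) encodes the catalytic subunit, which holds the polymerase and proofreading activities. Its level was 0.720 and 0.764 RPKM in KO and 0.123 and 0.295 RPKM in rescue of the exon 4 clone, and 0.820 and 0.778 RPKM in KO and 0.128 and 0.159 RPKM in rescue of the exon 6 clone. The KO replicates lay close together and far above each rescue replicate, the highest of which was from the exon 4 clone. *Pole* rose from 0.176 ± 0.0810 RPKM (SD, n = 4) in rescue to 0.770 ± 0.0413 RPKM (SD, n = 4) in KO, a 4.37-fold difference of means and the largest of the 10 genes. Its log2 change was 0.92 (SE 0.11), higher in 4 of 4 pairs (limma, Benjamini-Hochberg adjusted p = 0.00286). An antisense gene, *Gm15792*, shares 78 bases with its exons, 0.699% of their length. Log2 changes here are on the scale of log2(RPKM + 0.5), which understates the change of genes with low values.

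*Pole2* (chr12:69201773-69228195, minus strand) encodes the B subunit, which joins the enzyme to the helicase. It stood at 2.92 and 2.16 RPKM in KO and at 1.48 and 0.908 RPKM in rescue of the exon 4 clone, and at 1.95 and 1.57 RPKM in KO and 0.441 and 0.726 RPKM in rescue of the exon 6 clone. Both groups were higher in the exon 4 clone, and the lowest KO replicate, from the exon 6 clone, lay just above the highest rescue replicate, from the exon 4 clone. *Pole2* rose 2.42-fold, with a log2 change of 0.96 (SE 0.16), higher in 4 of 4 pairs (limma, Benjamini-Hochberg adjusted p = 0.0159). It lost this call in 8 of 20 alternative settings, 5 of them with a single replicate left out, at an adjusted p of up to 0.179. Its exons share 245 bases, 8.50% of their length, with the gene *Gm49384* on the same strand, and reads from there could belong to either.

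*Pole3* (chr4:62522649-62525068, minus strand) encodes a small histone-fold subunit that is also part of the CHRAC chromatin remodeller. It stood at 5.33 and 5.32 RPKM in KO and at 2.02 and 2.55 RPKM in rescue of the exon 4 clone, and at 4.63 and 5.12 RPKM in KO and 2.39 and 2.79 RPKM in rescue of the exon 6 clone. The groups were well apart in both clones. *Pole3* rose from 2.44 ± 0.325 RPKM to 5.10 ± 0.328 RPKM (SD, n = 4), 2.09-fold, with a log2 change of 0.94 (SE 0.11), higher in 4 of 4 pairs (limma, Benjamini-Hochberg adjusted p = 0.00261). *Pole4*, which encodes the histone-fold partner of Pole3 and was not among the 10, stood at 0.974 ± 0.173 RPKM in KO and 0.888 ± 0.119 RPKM in rescue (SD, n = 4), with overlapping groups and a log2 change of 0.08 (95% confidence interval -0.17 to 0.34).

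**Figure D1:**
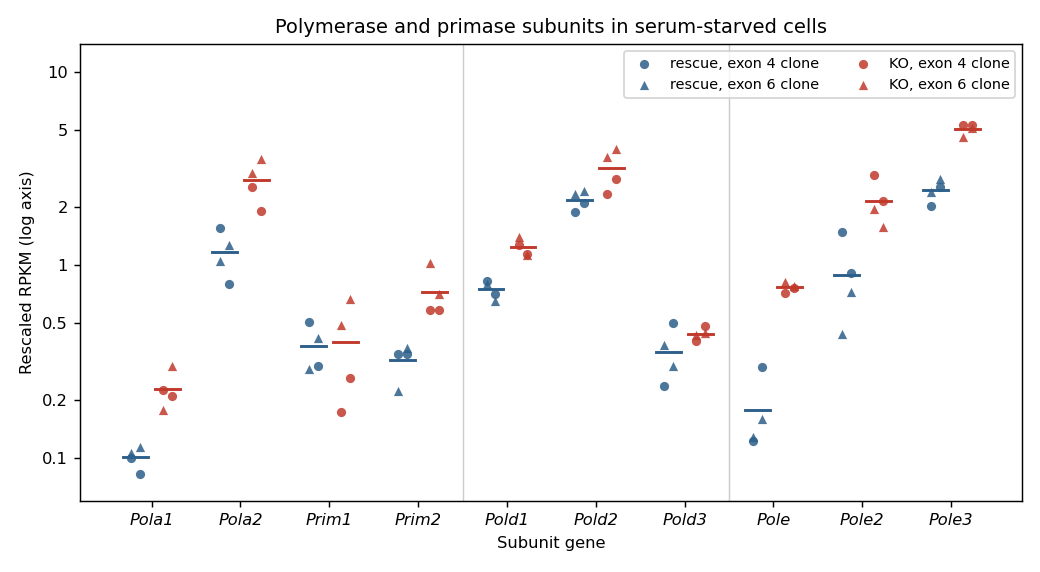
Rescaled RPKM (log axis) of the 10 subunit genes in 4 rescue (blue) and 4 KO (red) replicates, with circles for the exon 4 clone, triangles for the exon 6 clone and a bar at each mean. Thin vertical lines part the polymerase alpha-primase, delta and epsilon genes. *Pole* lies between 0.720 and 0.820 RPKM in KO and between 0.123 and 0.295 RPKM in rescue, while the groups of *Prim1* overlap.

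In the polymerase alpha-primase complex, *Pola2* passed the test and the other 3 genes did not, beside 1.61% of all genes called higher. *Pola2* (chr19:5940542-5964202, minus strand) encodes the B subunit, a non-catalytic scaffold. It stood at 2.55 and 1.92 RPKM in KO and at 1.57 and 0.795 RPKM in rescue of the exon 4 clone, and at 2.99 and 3.55 RPKM in KO and 1.05 and 1.28 RPKM in rescue of the exon 6 clone. All KO replicates lay above all rescue replicates, with the wider gap in the exon 6 clone. *Pola2* rose 2.35-fold, with a log2 change of 0.96 (SE 0.18), higher in 4 of 4 pairs (limma, Benjamini-Hochberg adjusted p = 0.0329). The call was lost in 9 of 20 alternative settings, 6 of them with a single replicate left out, at an adjusted p of up to 0.295.

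*Pola1* (chrX:93304767-93632155, minus strand) encodes the catalytic subunit of polymerase alpha and had the lowest level of the 10 genes in both groups. It stood at 0.225 and 0.208 RPKM in KO and at 0.10 and 0.0822 RPKM in rescue of the exon 4 clone, and at 0.178 and 0.301 RPKM in KO and 0.107 and 0.114 RPKM in rescue of the exon 6 clone. The KO replicates again lay above all rescue replicates, by a small amount in RPKM. The ratio of means, 2.26, was close to that of *Pola2*, but on the log2 scale with 0.5 added the change was 0.27 (SE 0.10) and did not pass the test (limma, Benjamini-Hochberg adjusted p = 0.448).

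Primase has a catalytic subunit, encoded by *Prim1* (chr10:128015168-128030037, plus strand), and a large subunit with an iron-sulfur cluster, encoded by *Prim2* (chr1:33453810-33669795, minus strand). *Prim2* stood at 0.583 and 0.586 RPKM in KO and at 0.348 and 0.345 RPKM in rescue of the exon 4 clone, and at 1.03 and 0.707 RPKM in KO and 0.221 and 0.373 RPKM in rescue of the exon 6 clone. Its groups did not overlap, with a 2.26-fold difference of means, and the exon 6 replicates were the more spread. The log2 change of 0.57 (SE 0.13) did not pass the test (limma, Benjamini-Hochberg adjusted p = 0.0992). It passed with technical replicates as separate samples, with quantile normalization and in the RPKM as deposited (limma, Benjamini-Hochberg adjusted p = 0.0287, 0.0392 and 0.00435) and in no other setting, within a range up to 0.448, with 0.150 for the replicate block. The first of these settings counts libraries of the same biological replicate as independent, which tends to make p-values too small.

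*Prim1*, by contrast, stood lower in KO in the exon 4 clone, at 0.174 and 0.260 RPKM against 0.509 and 0.299 RPKM in rescue. It stood higher in KO in the exon 6 clone, at 0.492 and 0.663 RPKM against 0.289 and 0.419 RPKM in rescue. The KO replicates thus held both the lowest and the highest values, and the rescue replicates lay among them. Over both clones the log2 change was 0.00 (SE 0.16, 95% confidence interval -0.37 to 0.38), higher in 2 of 4 pairs (limma, Benjamini-Hochberg adjusted p = 0.997). The sign of a change this close to 0 has no weight, and it turned in 6 of 19 alternative settings. In the RPKM as deposited the exon 4 values were 0.331 and 0.156 RPKM in KO and 0.367 and 0.113 RPKM in rescue, so that the second pair was higher in KO, and the log2 change over both clones was 0.49 (limma, Benjamini-Hochberg adjusted p = 0.121).

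None of the 3 polymerase delta genes passed the main test, beside 1.61% of all genes called higher and 0.083% called lower. Beside such shares the lack of a call in 3 genes says little. Whether the enzymes differed as sets of subunits was not tested. *Pold1* (chr7:44532746-44548849, minus strand) encodes the catalytic subunit with its proofreading exonuclease. It stood at 1.28 and 1.14 RPKM in KO and at 0.829 and 0.712 RPKM in rescue of the exon 4 clone, and at 1.40 and 1.13 RPKM in KO and 0.797 and 0.655 RPKM in rescue of the exon 6 clone. The groups did not overlap and the clones were alike. The difference of means was 1.65-fold, and the log2 change of 0.48 (SE 0.10), higher in 4 of 4 pairs, narrowly missed the threshold (limma, Benjamini-Hochberg adjusted p = 0.0570). With the replicate pairs as a block it passed (limma, Benjamini-Hochberg adjusted p = 0.0493), within a range from 0.0159 to 0.242 over the alternative settings.

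*Pold2* (chr11:5872180-5878292, minus strand), the gene of the B subunit that bridges the catalytic and accessory subunits, stood at 2.34 and 2.81 RPKM in KO and at 1.88 and 2.10 RPKM in rescue of the exon 4 clone, and at 3.63 and 4.01 RPKM in KO and 2.34 and 2.42 RPKM in rescue of the exon 6 clone. The clones differed in level, so that the lowest KO replicate, from the exon 4 clone, lay below the highest rescue replicates, from the exon 6 clone. Within each clone KO was above rescue, with a log2 change of 0.44 (SE 0.10) that did not pass the test (limma, Benjamini-Hochberg adjusted p = 0.101) except in the RPKM as deposited (adjusted p = 0.0354). *Pold3* (chr7:100082111-100121565, minus strand), the gene of the accessory subunit that binds the sliding clamp, stood at 0.404 and 0.481 RPKM in KO and at 0.235 and 0.499 RPKM in rescue of the exon 4 clone, and at 0.434 and 0.443 RPKM in KO and 0.387 and 0.301 RPKM in rescue of the exon 6 clone. Its rescue replicates spanned the KO values, and the log2 change was 0.15 (95% confidence interval -0.12 to 0.41), higher in 3 of 4 pairs. *Pold4*, the smallest subunit of polymerase delta and not among the 10, stood at 2.87 ± 0.846 RPKM in KO and 3.18 ± 0.886 RPKM in rescue (SD, n = 4), with a log2 change of -0.13 (95% confidence interval -0.63 to 0.37). Of its exon length, 24.6% is shared with another gene on the same strand.

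Counted together, 4 of the 10 genes were higher in KO at an adjusted p under 0.05 (*Pole*, *Pole2*, *Pole3* and *Pola2*), where 1.61% of the 16866 genes tested were. With the replicate pairs as a block *Pold1* joined them, which made 5, beside 1.64% of all genes. By the same limma test none was lower, beside 0.083% of all genes, and none was lower at an unadjusted p under 0.05 either, beside 3.72%. At an unadjusted p under 0.05, 8 of the 10 were higher, beside 5.06% of all genes. In 7 of the 10 each KO replicate lay above each rescue replicate, beside 3.11% of all genes, and 8 were higher in all 4 pairs, beside 8.96%. All 10 estimates were positive, as were 41% of those of all genes, and their median log2 change was 0.52, where that of all genes tested was -0.03. All 10 genes passed the minimum mean of 0.1 RPKM. The genes were chosen with earlier results of these data known, so these counts describe them and are no test of the list.

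Which of the 4 were called rested on single replicates. Without KO replicate 1 or rescue replicate 2 of the exon 4 clone, or without KO replicate 1, KO replicate 2 or rescue replicate 1 of the exon 6 clone, 2 genes were called, *Pole* and *Pole3*, beside 1.01% to 1.65% of all genes, and without rescue replicate 2 of the exon 6 clone 3 were, *Pole2* among them, beside 1.15%. With rescue sample 2 of both clones left out together, a setting chosen after seeing the data, the count was 2, again *Pole* and *Pole3*, beside 1.53%. These same 2 were called with no minimum level, beside 0.343% of all genes, and with no clone covariate, beside 1.34%. With technical replicates as separate samples 6 were called, *Prim2* and *Pold1* besides the 4, beside 2.18%. That setting counts libraries of the same biological replicate as independent, which tends to make p-values too small. With quantile normalization 5 were called, *Prim2* besides the 4, beside 1.77%. In the RPKM as deposited 7 were called, *Pold1*, *Pold2* and *Prim2* besides the 4, beside 5.35% of all genes, and there the median log2 change was 1.24 for the subunits and 0.64 for all genes tested. The log2 changes there were 0.57 for *Pola1*, 1.67 for *Pola2*, 0.49 for *Prim1*, 1.13 for *Prim2*, 1.19 for *Pold1*, 1.29 for *Pold2*, 0.66 for *Pold3*, 1.46 for *Pole*, 1.71 for *Pole2* and 1.78 for *Pole3*.

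**Figure D2:**
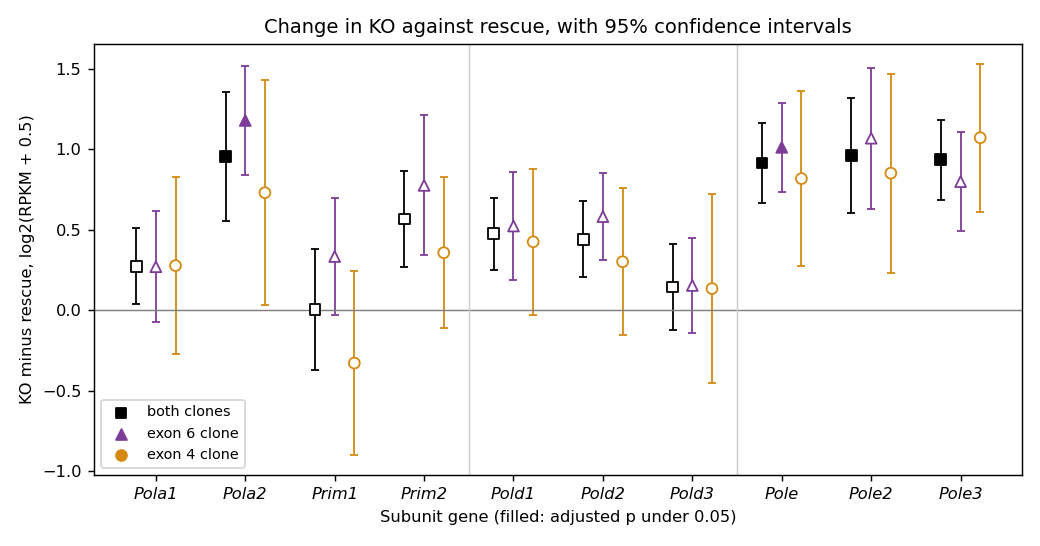
Change of KO against rescue for each subunit gene, as a difference of log2(RPKM + 0.5) from limma, with 95% confidence intervals, over both clones (squares), in the exon 6 clone (triangles) and in the exon 4 clone (circles); filled symbols mark an adjusted p under 0.05. *Prim1* is the gene whose estimate lies below 0 in the exon 4 clone, at -0.33, and above 0 in the exon 6 clone, at 0.33.

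Each clone was also tested alone, with 2 KO against 2 rescue replicates. Of the 10 genes, 2 passed the test in the exon 6 clone, beside 1.24% of the 15301 genes tested, and none was lower, beside 0.0654%. They were *Pola2*, with a log2 change of 1.18 (SE 0.13; limma, Benjamini-Hochberg adjusted p = 0.0265), and *Pole*, with a log2 change of 1.01 (SE 0.11; limma, Benjamini-Hochberg adjusted p = 0.0231). *Pole* missed the threshold with the replicate pairs as a block (limma, Benjamini-Hochberg adjusted p = 0.0557), which left 1 gene called beside 0.928% of all genes, and leaving out any replicate of this clone left 0, where between 0% and 0.455% of all genes were called higher. The count was also 0 with no minimum level, beside 0% of all genes. In the RPKM as deposited it was 10, but there 61.4% of all 16361 genes tested were called higher, so that count says little of the subunits. In the same clone *Pole2* changed by 1.07, *Pole3* by 0.80, *Prim2* by 0.78 and *Pold2* by 0.58, none of them past the threshold. An unadjusted p under 0.05 was reached by 7 of the 10, all higher in KO, beside 7.31% of all genes higher and 4.52% lower, and all 10 estimates were positive, beside 50.1%.

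In the exon 4 clone none of the 10 genes passed the limma test (Benjamini-Hochberg), and 0% of the 18751 genes tested did. At an unadjusted p under 0.05, 4 were higher in KO (*Pole3*, *Pole*, *Pole2* and *Pola2*), beside 2.27% of all genes, and none was lower, beside 1.82%. Their log2 changes there were 1.07, 0.82, 0.85 and 0.73. All estimates but that of *Prim1*, 9 of 10, were positive, beside 37.3% of all genes. *Pola1*, with means of 0.0911 RPKM in rescue and 0.217 RPKM in KO of this clone, met the minimum of 0.1 RPKM through KO. The 10 genes had a median log2 change of 0.39 in the exon 4 and 0.68 in the exon 6 clone, where the medians over all genes tested were -0.08 and 0.00.

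A call in 1 clone and not in the other does not show that the clones differ, so a fit with an interaction term compared their changes. By limma, adjusted by Benjamini-Hochberg, 0 of the 10 genes differed between the clones, and 0% of all genes did. At an unadjusted p under 0.05 *Prim1* differed, beside 4.06% of all genes. By numbered pair, their median change was 0.39 and 0.40 (exon 4) and 0.69 and 0.56 (exon 6), a mean of 0.51 ± 0.15 (SD, n = 4).

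The catalytic subunits of the 3 enzymes could be set against each other within each replicate, which removes the scaling of the library up to the added 0.5. The log2 level of *Pole* minus that of *Pold1* was -0.45 ± 0.10 in KO and -0.89 ± 0.23 in rescue (SD, n = 4), so *Pole* gained 0.44 on *Pold1* in KO (exact two-sided permutation test, p = 0.0286, the smallest that 70 splits allow; Benjamini-Hochberg adjusted p = 0.0429 over 3 pairs of genes). *Pole* minus *Pola1* was 0.81 ± 0.12 in KO and 0.16 ± 0.19 in rescue (SD, n = 4), a difference of 0.64 (exact two-sided permutation test, p = 0.0286; Benjamini-Hochberg adjusted p = 0.0429). For both of these the 4 KO replicates lay above the 4 rescue replicates. *Pola1* minus *Pold1* was -1.25 ± 0.19 in KO and -1.05 ± 0.10 in rescue (SD, n = 4), a difference of -0.20 that did not pass (exact two-sided permutation test, p = 0.143). The sign of this last difference depended on the added 0.5, and with 0.1 added it turned to 0.042. The ratios of means, with nothing added, were 2.26 for *Pola1* and 1.65 for *Pold1*.

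Both differences that passed depended on the scale. With 0.1 in place of 0.5 added, *Pole* minus *Pold1* grew to 1.04 and *Pole* minus *Pola1* to 0.997, and both passed (exact permutation test, Benjamini-Hochberg adjusted p = 0.0429 each), as they did with quantile normalization, at 0.62 and 0.78. With 1 added they fell to 0.24 and 0.43 and missed the threshold (exact permutation test, Benjamini-Hochberg adjusted p = 0.0571 for each). With the pairs as a block the adjusted p was 0.125 for all 3, the smallest that sign changes over 4 pairs allow in this exact permutation test. In the RPKM as deposited they were 0.27 and 0.88 and missed the threshold (exact permutation test, Benjamini-Hochberg adjusted p = 0.171 and 0.0857). Both also missed it without KO replicate 1 or 2 of the exon 4 clone or KO replicate 1 of the exon 6 clone (exact permutation test, adjusted p = 0.0857 each). Without any single rescue replicate both passed (exact permutation test, adjusted p = 0.0429 each). Without KO replicate 2 of the exon 6 clone *Pole* minus *Pold1* missed the threshold (adjusted p = 0.0571) and *Pola1* minus *Pold1* passed at -0.28 (exact permutation test, adjusted p = 0.0429). That pass was seen with 0.5 added. With 0.1 added and all replicates kept, *Pola1* minus *Pold1* was 0.042, so its direction is not settled.

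**Figure D3:**
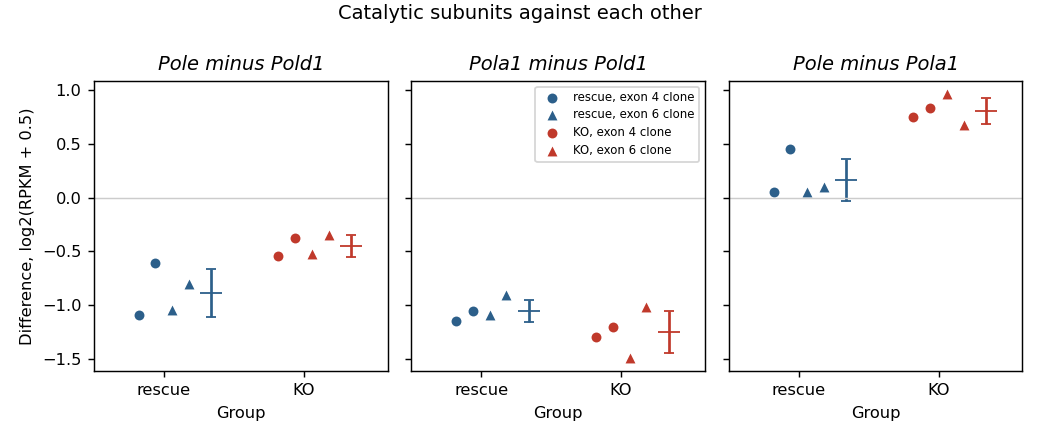
Difference in log2(RPKM + 0.5) between catalytic subunit genes within each of 4 rescue (blue) and 4 KO (red) replicates, with circles for the exon 4 clone, triangles for the exon 6 clone, and the mean and SD beside them. *Pole* minus *Pold1* has means of -0.89 in rescue and -0.45 in KO, and *Pola1* minus *Pold1* has overlapping groups.

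Since RPKM is scaled by gene length, levels could be ranked across the 10 genes. In KO the order from high to low was *Pole3*, *Pold2*, *Pola2*, *Pole2*, *Pold1*, *Pole*, *Prim2*, *Pold3*, *Prim1* and *Pola1*, from 5.10 to 0.228 RPKM. The ranges of *Pold2* and *Pola2*, *Pola2* and *Pole2*, *Pole* and *Prim2*, *Pold3* and *Prim1*, and *Prim1* and *Pola1* overlapped, and those of the other neighbours did not. In rescue the order was *Pole3*, *Pold2*, *Pola2*, *Pole2*, *Pold1*, *Prim1*, *Pold3*, *Prim2*, *Pole* and *Pola1*, from 2.44 to 0.101 RPKM, and only *Pold2* and *Pola2*, *Pold1* and *Prim1*, and *Pole* and *Pola1* were neighbours with separate ranges. The technical replicates of the exon 6 clone, libraries 2 and 3 of each group, differed over the 10 genes by a median of 0.23 in KO and 0.23 in rescue on the log2 scale, and by up to 0.62 for *Pold2* in KO and 0.60 for *Pola2* in rescue.

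Genes that work beside the polymerases at the fork were counted in the same way. Of 16 partners (the clamp, its loaders, tethers and single-strand binding proteins) 5 passed the test over both clones, all higher in KO, beside 1.61% of all genes, with a median log2 change of 0.45. *Mcm10*, which tethers polymerase alpha to the helicase, changed from 0.0680 ± 0.0282 RPKM to 0.586 ± 0.0739 RPKM (SD, n = 4). The minimum of 0.1 RPKM was set on the mean of all replicates, so *Mcm10*, which was under it in rescue, entered the test through KO. So did the partner *Dscc1*, named for that reason, which was not called. Its means were 0.0426 RPKM in rescue and 0.192 RPKM in KO. The clamp loader genes *Rfc4* and *Rfc3* had log2 changes of 0.97 and 0.80, *Chtf18* of the alternative loader 1.11, and *Rpa2* of the single-strand binding complex 0.96. Among those not called, *Rfc2* at 0.54 and *Rfc5* at 0.51 had the largest changes.

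Of 15 genes for DNA polymerases of repair, bypass and mitochondrial synthesis and their subunits, 13 were tested, and none passed by limma with Benjamini-Hochberg adjustment, with a median log2 change of 0.07. Of all genes tested, 1.61% were called higher and 0.083% lower. Before adjustment the p was under 0.05 for 2 genes above 0 and 1 gene below it, beside 5.06% and 3.72% of all genes. The one below 0, named after its values were seen, was *Rev3l* of polymerase zeta, at -0.32. Those above 0 were *Polq*, of theta-mediated end joining, at 0.244 ± 0.0702 RPKM in KO and 0.0522 ± 0.0551 RPKM in rescue (SD, n = 4), with a log2 change of 0.43, and *Poll*, which fills gaps in repair, at 0.42. *Polq* was under the minimum of 0.1 RPKM in rescue and entered the test through KO. The CST complex, which recruits polymerase alpha to telomeres, had 0 of 3 genes called by limma and 1 higher at an unadjusted p under 0.05, with log2 changes of 0.44 for *Ctc1* and -0.13 for *Ten1*. The other genes of the CHRAC remodeller, which shares *Pole3*, had 0 of 3 called by limma and 0 at an unadjusted p under 0.05, with 0.11 for *Baz1a* and -0.03 for *Smarca5*. The same shares of all genes stand beside the counts of these lists, and beside 1.61% called a count of 0 in so few genes says little. The difference between these lists was not tested.

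**Figure D4:**
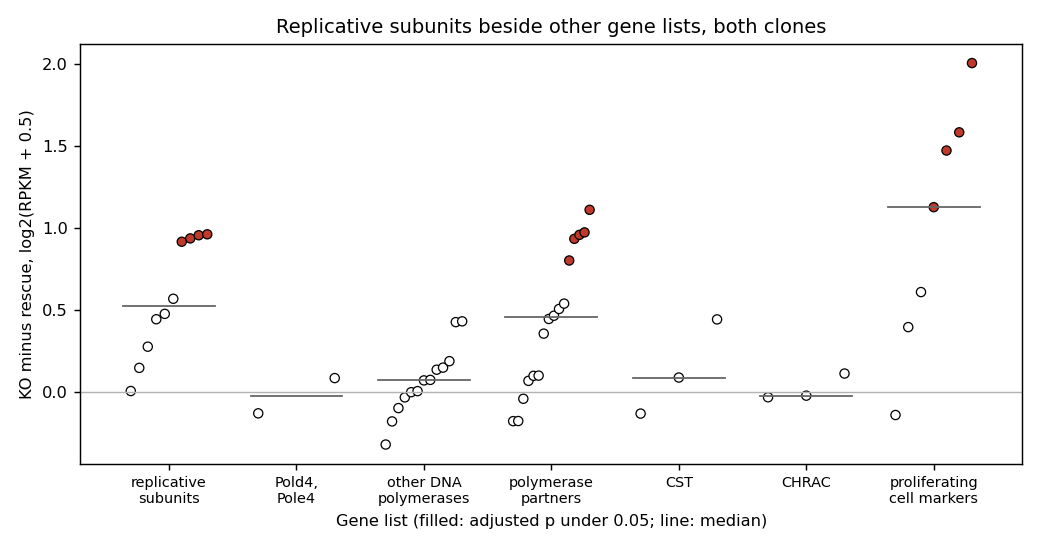
Change of KO against rescue over both clones, as a difference of log2(RPKM + 0.5), for each tested gene of the replicative subunits and of the other gene lists; filled points mark an adjusted p under 0.05 and the line the median. The subunits have 4 filled points and a median of 0.52, the 16 partners 5, and the other DNA polymerases none.

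Markers of proliferating cells were counted too. Of *Mki67*, *Ccna2*, *Ccnb1*, *Cdk1*, *Top2a*, *Ccne1* and *Ccne2*, 4 of 7 were higher in KO over both clones, beside 1.61% of all genes, with a median log2 change of 1.13 (*Top2a* 2.01, *Ccna2* 1.58, *Cdk1* 1.47 and *Mki67* 1.13). *Ccne1* at 0.61, *Ccnb1* at 0.39 and *Ccne2* at -0.14 did not pass. *Ccnb1*, with a rescue mean of 0.0328 RPKM, met the minimum of 0.1 RPKM through KO. Their summed level in the exon 4 clone was 10.5 and 9.65 RPKM in KO and 2.79 and 2.60 RPKM in rescue. Among libraries of the exon 6 clone it came to 10.4, 11.7 and 10.4 RPKM in KO and to 1.32, 1.17 and 2.08 RPKM in rescue. All KO libraries were high and all rescue libraries low, *Top2a* was the most abundant gene in each, and none of the 7 was listed at 0. These markers are themselves cell cycle genes, a class that the paper reports as generally raised without Lin37. By flow cytometry of starved knockout cells with such plasmids, the paper saw a minor rise of S and G2/M cells without functional Lin37. In bulk RNA, more cycling cells and more RNA per cell cannot be told apart, and the part of cycling cells in the change of the subunits was not tested.

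Outside the lists, the genes most like the subunits were sought among 7521 genes that averaged 1 RPKM or more, by Pearson r over the 8 replicates with the mean standardised profile of *Pole3*, *Pold2*, *Pole2* and *Pola2*, the subunits above that level. They were *Kif20a* (r = 0.993), a kinesin of cytokinesis, *Anln* (0.992), the anillin of the contractile ring, *Chaf1a* (0.990), the large subunit of the histone chaperone CAF-1, *Foxm1* (0.987), a transcription factor of late cell cycle genes, and *Gm8203* (0.987). The minimum was set on the mean of all replicates, so genes under 1 RPKM in rescue could enter through KO, as *Kif20a*, *Anln*, *Chaf1a*, *Foxm1* and the subunit *Pole2* did. The subunits that made the profile followed it less closely, with r of 0.949 for *Pola2*, 0.938 for *Pole3*, 0.802 for *Pold2* and 0.801 for *Pole2*. The r values thus describe likeness to the mean profile and not to each subunit, over replicates that share libraries and groups. *Chaf1a* went from 0.930 ± 0.255 RPKM to 5.0 ± 0.539 RPKM and *Foxm1* from 0.490 ± 0.0271 RPKM to 3.63 ± 0.489 RPKM (SD, n = 4), with log2 changes of 1.96 and 2.05.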

How the data were processed

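RNA was depleted of ribosomal RNA and made into libraries with a Nugen Ovation kit. The authors clipped adapters with cutadapt, mapped reads to mm10 with segemehl and counted them per gene with rnacounter against GENCODE. They deposited RPKM values, and which reads the library total counts is not given in the sources used here. The deposited values are not counts, so the count test of the study could not be used. Before that test the authors took out GSAT_MM repeat entries. Of low values, 20.0% to 37.5% came out as whole reads (tolerance 0.05), and depth is unknown.

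The scaling factor of a library was its median ratio to the geometric mean, taken over 8523 genes (mean of at least 1 RPKM, above 0 everywhere), and technical replicates were averaged. Tests covered genes averaging 0.1 RPKM or more, on log2(RPKM + 0.5) with limma 3.58.1 in R 4.3.3 (eBayes with trend, clone as covariate) and Benjamini-Hochberg adjustment over all genes tested, called at an adjusted p under 0.05. Python 3.11.15 was used with pandas 2.3.3. Of the 45232 entries, 44585 matched GENCODE M21, which gave positions in GRCm38. The procedure was tested on simulated data.

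The labels give KO and rescue replicates the same numbers. The deviations of like-numbered replicates from their group means correlated by 0.48 (exon 4) and 0.36 (exon 6) over 7550 genes. The numbers were therefore treated as pairs in the pair counts and in the settings with a replicate block. The main limma fit and the main permutation test did not use the pairs. The labels name biological replicates without saying how cultures were kept apart, so p-values measure the spread between these samples.

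The members and lists were chosen with earlier results of these data known. Named were *Lin37*, the 10 subunits, *Pold4* and *Pole4*, in each other list the called genes and the 2 largest changes among the rest, and the 5 most alike genes.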

Additional observations from a re-analysis of the deposited data

Results flagged for a closer look

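The estimates of *Prim1* had opposite signs in the clones, and neither passed the test. Both pairs of the exon 4 clone had less *Prim1* in KO (log2 differences of -0.58 and -0.07) and both pairs of the exon 6 clone had more (0.33 and 0.34). In the RPKM as deposited the second exon 4 pair turned, with 0.156 RPKM in KO and 0.113 RPKM in rescue. The exon 6 change exceeded the exon 4 change by 0.66 on the log2 scale (SE 0.25), which did not pass the interaction test (limma, Benjamini-Hochberg adjusted p = 0.997). At levels between 0.174 and 0.663 RPKM, and with no depth to judge them by, the cause was not tested.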

How the results depend on the processing

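The log2 changes of *Pole* and *Pole3* passed the threshold in every alternative that tested them, while *Pola2* lost its call in 9 and *Pole2* in 8. The 4 genes called over both clones became 2 with no minimum level (0.343% of all genes were called higher there), 2 with no clone covariate (1.34%), 7 in the RPKM as deposited (5.35%), 6 with technical replicates separate (2.18%), 5 with quantile normalization (1.77%) and 2 to 4 when 1 replicate was left out (1.01% to 1.65%). In the exon 6 clone the 2 calls became 0 with no minimum level (0% of all genes were called higher there), 1 with a minimum of 1 RPKM (0.894%), 10 as deposited (61.4%), 4 with technical replicates separate (1.73%), 0 without the second technical replicate (0.438%), and 0 each time 1 replicate was left out (0% to 0.455%), where the lone sample is assumed to vary like the others. As deposited, the median of all genes moved to 0.64 and that of the subunits to 1.24, which is 0.61 above it. A pseudocount of 0.1 gave a median of 0.83 for the subunits, and leaving out a replicate 0.45 to 0.56. A minimum of 1 RPKM, which tested 4 subunits, gave 0.95. That minimum was set on the mean of all replicates, and *Pole2*, at 0.889 RPKM in rescue, met it through KO. The 271 genes higher in KO became 155 with no minimum, 93 with a minimum of 1 RPKM, 875 as deposited and 174 to 265 when a replicate was left out; the 14 lower genes became 6 with no clone covariate, 27 with the replicate block and 4 to 16 when a replicate was left out. With the replicate block, 5 subunits were called over both clones and 1 in the exon 6 clone, and no other call of a subunit changed over both clones. Leaving out rescue sample 2 of both clones, chosen after seeing the data, gave 2 over both clones and 1 in the exon 6 clone. *Prim1* was below 0 with a pseudocount of 0.1 (-0.035), when a replicate of the exon 6 clone was left out (-0.02 and -0.11 without KO replicates 1 and 2, -0.11 and -0.02 without rescue replicates 1 and 2) and without both rescue samples 2 (-0.034), and ran up to 0.14 when a replicate of the exon 4 clone was left out. *Pole* minus *Pold1* was 1.04 with a pseudocount of 0.1, 0.24 with one of 1, 0.27 as deposited, 0.44 with the replicate block and 0.37 to 0.53 when a replicate was left out; *Pole* minus *Pola1* was 0.997, 0.43, 0.88, 0.64 and 0.59 to 0.74. *Pola1* minus *Pold1* turned to 0.042 with a pseudocount of 0.1 and was -0.62 as deposited and -0.28 to -0.12 when a replicate was left out. The cause of these differences was not tested. Depth is unknown, which limits the genes under 1 RPKM.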
